A study of Cymbopogon flexuosus and Cymbopogon winterianus with 4 samples.

Results

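The most abundant leaf transcripts that 2 aromatic grasses have in common are described here. The grasses are lemongrass (Cymbopogon flexuosus) and citronella (Cymbopogon winterianus), with 2 leaf libraries each. A contig, which is an assembled transcript sequence, was taken as a shared leading contig when it stood among the 150 highest of a library in each of the 4 libraries. The members were thus chosen by their levels in CPM, the deposited counts per 1000000 counts of the library. This rule found 107 of 25576 lemongrass contigs, or 0.418% of them. Plants of both species were grown in field plots under control conditions without any treatment. The sources used here do not give plant age or the number of plants behind a library, so the spread between 2 libraries of a species may be technical.

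Leaf messenger RNA is unevenly shared among genes. In grass leaves the transcripts of the photosynthetic apparatus and of carbon fixation are usually among the most abundant, while the scent of lemongrass and citronella comes from monoterpenes made by a smaller set of enzymes. The files used here do not link contigs to gene names, so which of these genes the shared leading contigs represent is not known here, and the labelled tissue could not be checked against leaf markers. Contigs are given by ID, and no role is assigned to any of them. Contig lengths were not used here, so the order of contigs is an order of reads and not of transcript molecules. In a bulk sample such as a leaf, fewer cells of a type and less RNA per cell cannot be told apart.

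Each library was counted on the same lemongrass contigs, with totals from 4875674 to 9485822 counts. The lowest count of any shared leading contig in any library was 3383, at which counting error alone has an SD of 1.72%. The levels in all 4 libraries chose these contigs. Their levels and the differences between species are therefore descriptions without a test. The rule also keeps out any contig that is high in 1 species and much lower in the other. Reads of citronella were counted on lemongrass contigs, and what the mismatch between species does to single contigs was not tested.

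On lemongrass contigs the leading lists of the libraries overlapped more within a species than between species. The lemongrass libraries shared 147 of their 150 leading contigs (98% of each list), and the citronella libraries shared 136 (90.7%). Between species the number ran from 108 (72%) to 112 (74.7%). In all, 204 contigs were in at least 1 list, and the 107 shared ones were 52.5% of these. Another 35 were in both lemongrass lists and in no citronella list, and 29 were in both citronella lists and in no lemongrass list. The other 33 contigs had mixed patterns, and 22 of these were in 1 citronella list alone.

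The threshold fell within a dense range of levels. The contig just inside it, g.contigcf2038, stood at 605 and 599 CPM in the lemongrass libraries and at 631 and 756 CPM in the citronella libraries, and its worst rank was 150. The next inside had a worst rank of 149, at 1073 and 1098 CPM in lemongrass and 641 and 694 CPM in citronella. The first contigs outside were g.contigcf1950 and g.contigcf1993, both with a worst rank of 154. The former stood at 835 and 832 CPM in lemongrass and at 664 and 674 CPM in citronella. The latter stood at 936 and 916 CPM in lemongrass and at 621 and 747 CPM in citronella. Of these 4 contigs, 3 were thus well within the lemongrass lists and met or missed the rule through citronella.

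The 107 contigs took a similar share of the counts in 3 of the 4 libraries and a larger one in the other. The share was 12.9% and 13.0% in the lemongrass libraries, and 13.3% and 14.7% in the citronella libraries. The means were 13.0% ± 0.0593 and 14.0% ± 0.976 (SD, n = 2). The citronella libraries were both above the lemongrass libraries, but the gap between them, 1.38 percentage points, was larger than the gap between the species means. It was 0.743 percentage points without the 2 contigs that differed most between the citronella libraries, described further on. Within each library the shared contigs held most of the counts of its own 150 leading contigs, from 78.9% to 80.2%.

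The counts were spread over the contigs rather than held by a few. The leading contig took 0.484% ± 0.0112 of the lemongrass counts and 0.557% ± 0.0265 of the citronella counts (SD, n = 2). The leading 10 took 2.71% ± 0.0296 and 3.03% ± 0.0243, and the leading 50 took 8.30% ± 0.0246 and 9.06% ± 0.798. For the leading 10 the citronella libraries lay close together, at 3.02% and 3.05%. Their shares parted between the leading 10 and the leading 20, where they reached 4.83% and 5.64%.

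**Figure D1:**
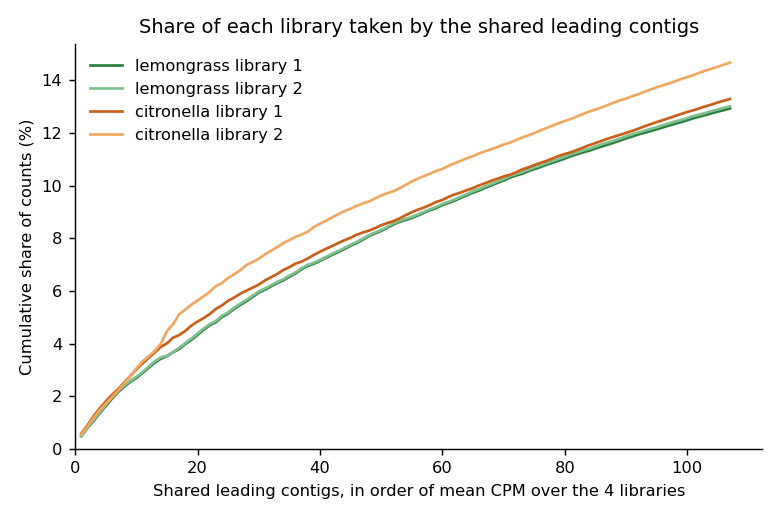
Cumulative share of a library's counts in percent (y axis) over the 107 shared leading contigs in order of their mean CPM over the 4 libraries (x axis), with a line for each library. The lemongrass lines lie on each other and end at 12.9% and 13.0%, the first citronella library ends at 13.3%, and the second leaves the others after the leading 10 and ends at 14.7%.

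Levels among the 107 contigs covered less than a factor of 10 in each library. In the first and second lemongrass library they ran from 599 to 4759 CPM and from 599 to 4917 CPM, with medians of 1014 and 1023 CPM. In citronella they ran from 631 to 5759 CPM in its first library, with a median of 965 CPM, and in its second from 694 to 5385 CPM with a median of 1040 CPM. The median of all lemongrass contigs was between 9.49 and 10.4 CPM in these libraries. More contigs passed 2000 CPM in citronella, at 16 and 17 in its libraries against 9 in each lemongrass library. At 1000 CPM the libraries were closer, with 54 and 55 contigs in lemongrass and 51 and 57 in citronella.

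The contig with the highest mean, g.contigcf1893, ranked first in all 4 libraries. It stood at 4759 and 4917 CPM in lemongrass and at 5759 and 5385 CPM in citronella. Both citronella libraries were higher, by 1.15 times in the means. No other contig held the same rank in all 4 libraries among the leading 10.

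The next 3 contigs lay near each other. The second by mean, g.contigcf1897, stood at 3096 and 3189 CPM in lemongrass and at 3081 and 2990 CPM in citronella. Its libraries were separated by only 14.7 CPM at the nearest point, far less than the spread within either species. g.contigcf1900 stood at 2640 and 2708 CPM in lemongrass and at 3502 and 3276 CPM in citronella, with both citronella libraries higher, and it ranked second in citronella against sixth in lemongrass. g.contigcf1904 stood at 2937 and 2979 CPM in lemongrass and at 2940 and 2976 CPM in citronella. Its libraries overlapped, and its highest library was 1.01 times its lowest, the narrowest spread among the 107 contigs.

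The next 3 by mean were not higher in citronella. g.contigcf77 stood at 2804 and 2920 CPM in lemongrass and at 2693 and 2471 CPM in citronella. g.contigcf1694 stood at 2740 and 2799 CPM in lemongrass and at 2457 and 2421 CPM in citronella. For both, the lemongrass libraries were higher, with mean ratios of 1.11 and 1.14 times. g.contigcf754 stood at 2552 and 2494 CPM in lemongrass and at 2159 and 2497 CPM in citronella, so its libraries overlapped and the first citronella library was the lowest.

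The last 3 of the leading 10 were higher in citronella. g.contigcf1917 stood at 2016 and 1941 CPM in lemongrass and at 2584 and 2762 CPM in citronella. g.contigcf1913 stood at 1874 and 1888 CPM in lemongrass and at 2412 and 2694 CPM in citronella. In both, the citronella libraries were higher, by 1.35 and 1.36 times in the means. g.contigcf1937 stood at 1474 and 1475 CPM in lemongrass and at 2582 and 3041 CPM in citronella, a factor of 1.91, and it ranked 26 in lemongrass and 6 in citronella. Of the leading 10 contigs, 5 thus had both citronella libraries above lemongrass, 3 had both lemongrass libraries above citronella, and 2 overlapped. Over the 25107 contigs tested further on, 37.3% had both citronella libraries higher and 40.1% both lemongrass libraries. Nothing is read from the numbers among these 10.

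**Figure D2:**
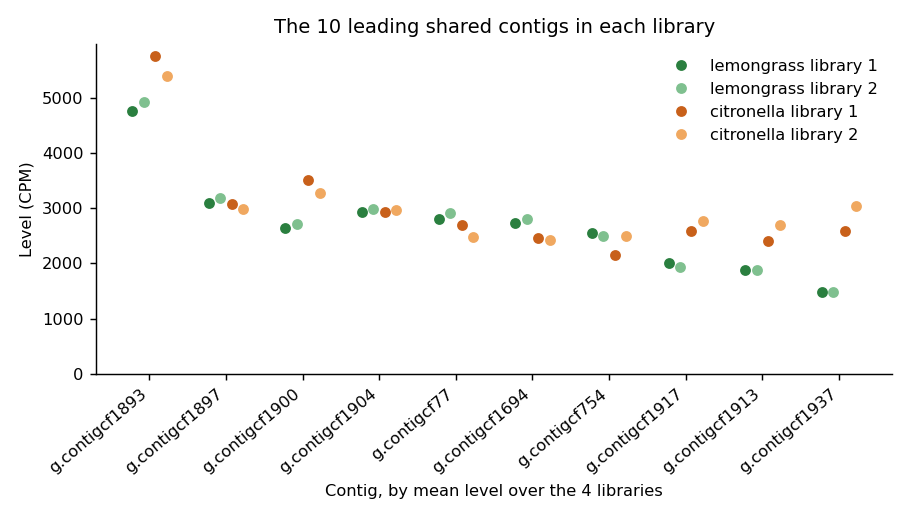
Level in CPM (y axis, from 0) of the 10 shared leading contigs with the highest mean (x axis), with a point for each of the 4 libraries. g.contigcf1893 leads in every library, the points of g.contigcf1904 lie within 1.01 times of each other, and g.contigcf1937 stands near 1475 CPM in lemongrass and at 2582 and 3041 CPM in citronella.

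Below the leading 10, the direction of the gap changed little with level until the lowest ranks of the list. Of the 25 contigs in places 11 to 35 by mean, both citronella libraries were higher in 9 and both lemongrass libraries in 9. In places 36 to 71 the numbers were 13 and 14 of 36. In places 72 to 107, citronella was higher in 24 of 36 and lemongrass in 6. These places lie near the threshold, where the rule acts on the levels, so nothing is read from the imbalance. Over all contigs tested the shares were 37.3% and 40.1%, and nothing is read from the numbers in the other places either.

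Most of the 107 contigs kept a similar level over all 4 libraries. The rule favours this, since it asks for a high rank in each library, and no share over all contigs is given here. The highest library was at most 1.5 times the lowest for 84 contigs and at most 1.1 times for 12, with a median of 1.28 times. For 6 contigs it was more than 2 times the lowest. The widest range belonged to g.contigcf2961, at 7.55 times, followed by g.contigcf117 at 3.91 times.

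Lemongrass libraries differed less from each other than citronella libraries did. The median absolute log2 ratio of CPM was 0.031 between the lemongrass libraries and 0.12 between the citronella libraries, over 107 contigs. Counting error alone has a median SE of 0.026 and 0.025 on this scale. The lemongrass gap was over 2 counting SEs for 30 contigs and the citronella gap for 80. The citronella gap was the larger one for 88 contigs. The signed median log2 ratio of the second over the first citronella library was 0.10, with 74 contigs higher in the second and 33 in the first. Over all contigs tested it had the other sign, at -0.075, with 10349 higher in the second library and 14571 in the first. Between the lemongrass libraries the medians were 0.01 and -0.03. None of the 107 contigs was over 2-fold apart between the lemongrass libraries, where 4.37% of the 25107 contigs tested were. In citronella 2 contigs were, where 7.68% of the contigs tested were. Counting error is larger for the less abundant contigs that make up this background, and its part in the comparison was not tested.

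The 2 contigs that parted the citronella libraries were g.contigcf2961 and g.contigcf117. g.contigcf2961 stood at 965 and 641 CPM in lemongrass and at 1292 and 4842 CPM in citronella, so that its citronella libraries ranked it 30 and 2. It also had the widest gap between the lemongrass libraries, with ranks of 66 and 134. g.contigcf117 stood at 1246 and 1568 CPM in lemongrass and at 975 and 3807 CPM in citronella. Its first citronella library was below both lemongrass libraries and its second far above them. Together they took 0.221% of the counts in each lemongrass library. In citronella they took 0.227% of the first library and 0.865% of the second. A level of either contig in citronella is thus set by which library is read.

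**Figure D3:**
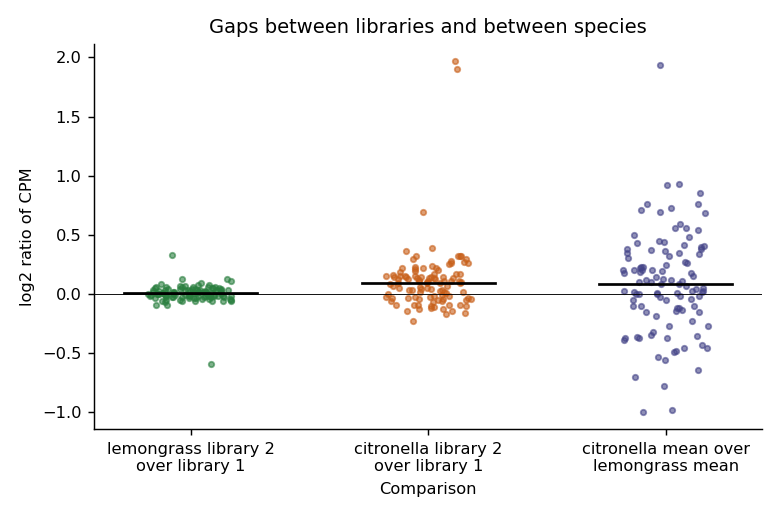
Log2 ratio of CPM (y axis) of each of the 107 shared leading contigs between the 2 lemongrass libraries, between the 2 citronella libraries and between the species means (x axis), with a bar at the median. Lemongrass ratios lie close to 0, citronella ratios centre on 0.10 with 2 contigs near 2, and the species ratios spread from -0.995 to 1.93.

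Between species, the gap exceeded both gaps between libraries for 70 of the 107 contigs and did not for 37. No share over all contigs tested is given here for this count, so nothing is read from it. Libraries were fully separated by species for 83 contigs (77.6%), against 77.5% of all contigs tested. Citronella was higher in 51 of these and lemongrass in 32, where 37.3% and 40.1% of all contigs tested did not overlap in these directions. The remaining 24 of the 107 contigs overlapped. With CPM on library sizes scaled by TMM (trimmed mean of M-values), 77 did not overlap, 50 higher in citronella and 27 in lemongrass.

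The species were also compared across the whole contig table with edgeR's quasi-likelihood test, 2 libraries against 2, with Benjamini-Hochberg adjustment and a threshold of 0.05. All 107 contigs passed the filter on low counts. Of them 62 (57.9%) were called, against 54.8% of 25107 contigs tested. In the direction of citronella 40 were called, where 27.2% of all contigs were, and in the direction of lemongrass 22, where 27.6% were. The rule used the levels in the same libraries, so nothing is read from these counts. They also moved when a library was left out. The share called over all contigs tested likewise fell when a lemongrass library was left out, so that movement is not particular to the 107 contigs. In such fits the remaining library of a species is assumed to vary like the other species.

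In the fit, folds were below a factor of 2 in all but 1 contig. Fitted log2 fold changes, citronella minus lemongrass, had a median of 0.11 over the 107 contigs and of -0.005 over all contigs tested. The median absolute value was 0.28, against 0.68 over all contigs tested. Leaving out a citronella library moved the median of the 107 contigs, to 0.19 without the first and to 0.038 without the second. The fold change lay within 0.5 of 0 for 84 contigs and within 0.1 for 24. A single contig was over 2-fold apart, where 35.3% of all contigs tested were, and the rule itself removes most contigs with such folds. The smallest absolute log2 fold change among the 62 called contigs was 0.22, and the largest among the 45 others was 0.23.

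Among the 107 contigs, g.contigcf2961 had the largest fold towards citronella, with a log2 fold change of 1.98 ± 0.34 (SE). It rested on the second citronella library. Leaving that library out gave 0.69, and leaving out the other citronella library gave 2.70. The next was g.contigcf1937, at 0.96 ± 0.10, where each citronella library was above both lemongrass libraries. For g.contigcf117 the log2 fold change of 0.81 ± 0.33 turned to -0.53 without the second citronella library, and it was 0.31 with limma-voom.

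Towards lemongrass the largest folds were those of g.contigcf1908 and g.contigcf1914. g.contigcf1908 stood at 1418.2 and 1418.3 CPM in lemongrass and at 675 and 748 CPM in citronella. Both of its lemongrass libraries were above both citronella libraries, with a log2 fold change of -0.97 ± 0.09 (SE). g.contigcf1914 stood at 1599 and 1619 CPM in lemongrass and at 754 and 878 CPM in citronella, with a log2 fold change of -0.95 ± 0.10 (SE). Neither changed its direction when any library was left out, with ranges of -1.07 to -0.82 and of -1.09 to -0.77.

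Ranks moved further between species than between libraries. By mean CPM the 107 contigs shifted by a median of 17 places between species, while the median shift was 2 places between the lemongrass libraries and 7 between the citronella libraries. The shift between species was at most 10 places for 36 contigs and over 50 for 17. In citronella 56 contigs ranked higher than in lemongrass, 46 ranked lower and 5 held the same rank. Of the leading 10 contigs of each species 7 were the same, and of the leading 20 it was 12. At 50 and 100 contigs the numbers were 38 and 69.

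Of the 2 widest shifts in rank in each direction, 3 went with mean ratios up to 1.99 and 1 with a larger ratio. g.contigcf1908 fell from rank 28 in lemongrass to 134 in citronella, a loss of 106 places at a ratio of 1.99. The contig with the next largest loss fell by 93 places, from rank 50 to 143, at a mean ratio of 1.63. The largest gain was that of g.contigcf2961, from rank 93 to 3 at a ratio of 3.82, which its second citronella library sets. The next gain, of 72 places, belonged to a contig at 653 and 681 CPM in lemongrass and at 1128 and 1018 CPM in citronella, a ratio of 1.61. Levels lay close together in the lower part of the list, so that a small fold there spans many places.

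**Figure D4:**
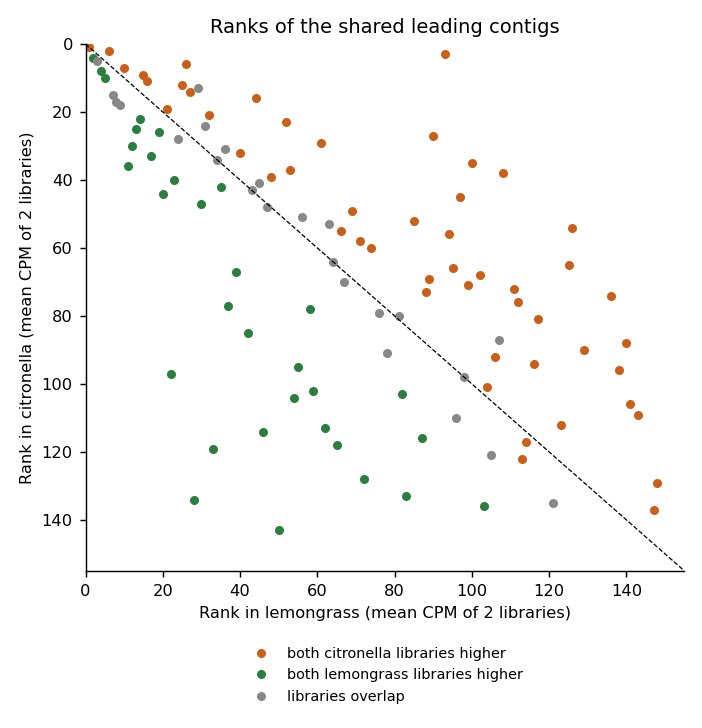
Rank of each of the 107 shared leading contigs by mean CPM in lemongrass (x axis) and in citronella (y axis, rank 1 at the top), coloured by whether the libraries of the species overlap. Points above the dashed line of equal rank rank higher in citronella, and the point at rank 93 and 3 is g.contigcf2961.

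Not every leading contig was shared, even near the top. The leading 17 contigs of lemongrass and the leading 19 of citronella, by mean CPM, all belonged to the 107. The first exception in lemongrass ranked 18 there and 597 in citronella, at 1809 and 1768 CPM against 305 and 259 CPM. The first in citronella ranked 20 there and 336 in lemongrass, at 1906 and 1900 CPM against 394 and 379 CPM. The 35 contigs leading in lemongrass alone took 2.81% ± 0.0185 of the lemongrass counts and 1.49% ± 0.0343 of the citronella counts (SD, n = 2). The 29 leading in citronella alone took 1.28% ± 0.0194 and 2.52% ± 0.203. Their directions follow from how they were chosen. Over 2-fold apart were 9 of the 35 and 13 of the 29, and many of the others thus missed the shared list by less than a factor of 2.

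The shared leading contigs lay together in the numbering of the contigs. The rule did not use the numbers, but it used levels, which the numbers partly follow, as described below. Contig IDs end in a number from 1 to 25576. Stretches of numbers were drawn around the 107 contigs wherever successive ones were at most 100 apart. The stretches thus begin and end at such contigs, which raises their share within a stretch. The longest, from 1888 to 2189, held 84 (78.5%) of them and 302 (1.18%) of all contigs. Between 1888 and 2000 the shared leading contigs were 64 of 113 contigs. The next stretch, from 740 to 780, held 10 among 41 contigs. A further 12 lay elsewhere below 1888, and 1 was above 2189. Of the 107, 60 had another of them at the next number.

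This grouping goes with an order of the numbers by level. The numbers were split at 1888, where the longest stretch starts. From there onward, the number and the level had a Spearman rank correlation of -0.92 and -0.90 in the lemongrass libraries, across 23689 contigs. In the citronella libraries it was -0.71 and -0.67. Among the 85 shared leading contigs in this range, the lemongrass libraries gave -0.66 and -0.71 and the citronella libraries -0.47 and -0.36. Below 1888 there was no such order, with values from 0.092 to 0.18 across 1887 contigs. The contigs share their libraries and are not independent, so these are descriptions. The sources used here do not say how contigs were numbered. Of the contigs leading in lemongrass alone, 27 of 35 lay between 1888 and 2189, and of those leading in citronella alone, 8 of 29.

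**Figure D5:**
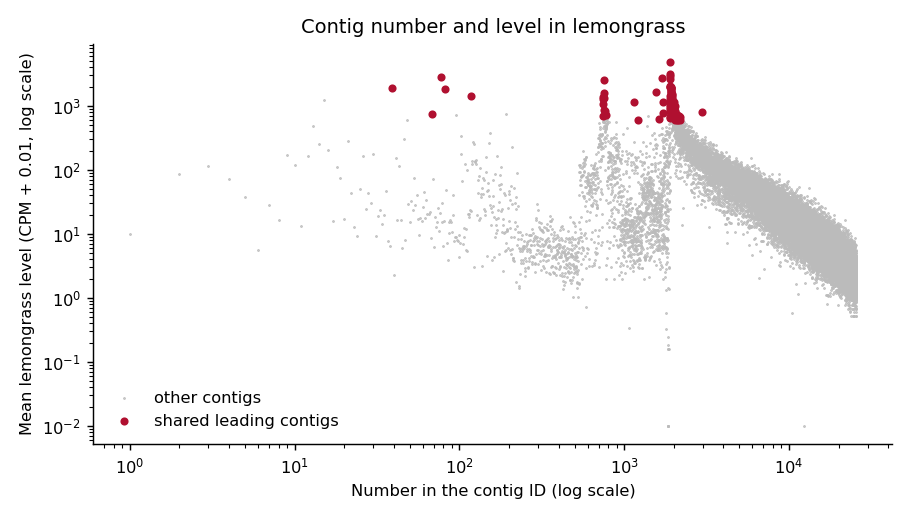
Mean lemongrass level (y axis, CPM + 0.01, log scale) against the number in the contig ID (x axis, log scale) for all 25576 lemongrass contigs, with the 107 shared leading contigs marked. Most marked contigs sit near the start of a falling band that begins near number 1888, and a smaller group sits between 740 and 780.

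The same rule was applied to the second deposited table, in which the 4 libraries were counted on 42250 citronella contigs. It found 68 contigs there, and their IDs cannot be matched to the lemongrass contigs. They took 8.50% and 8.36% of the lemongrass counts, and 3.35% and 8.13% of the citronella counts. The first citronella library stood apart on these contigs, with compressed levels at the top. The other libraries had totals of 5132053 to 6369924 counts here and of 4875674 to 6636226 on lemongrass contigs. The first citronella library had 6222870 counts here, against 9485822 on lemongrass contigs. Its highest level among the 68 was 929 CPM and its median 461 CPM, where the other libraries had highest levels of 6463 to 6757 CPM and medians of 972 to 1013 CPM. The sources used here do not say whether its reads were treated differently before counting, so the share of 3.35%, the number of 68 and the overlaps of its list carry that doubt. Its leading list shared 102 of 150 contigs with that of the second citronella library, and 79 and 75 with those of the lemongrass libraries. The second citronella library shared 104 and 102 with the lemongrass libraries. On citronella contigs its list thus overlapped no more with the other citronella list than with the lemongrass lists. The list of the first citronella library did overlap more with that of the second than with those of lemongrass. Without the first citronella library the rule found 102 contigs. On lemongrass contigs, leaving out any 1 library gave 107 to 111 contigs.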

How the data were processed

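The authors deposited whole-number counts per contig in 2 tables, on lemongrass and on citronella contigs, and both hold all 4 libraries, per the file headers. Paired-end TruSeq libraries were made from total RNA, per the labels' protocols. Tools listed in the submitters' processing notes, without their roles, are HTSeq, HISAT2, SAMtools, edgeR, Trimmomatic 0.32 and FastQC 0.11.2. The sources used here do not give the origin of the contigs or say how reads matching several contigs were counted, and near-identical contigs could share or lose reads.

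Species were taken from the sample titles. CPM, ranks and shares were computed from the deposited counts and column totals. The comparison of species over the lemongrass table used edgeR 4.0.16 under R 4.3.3 (filterByExpr by species, TMM, glmQLFit and glmQLFTest, two-sided, Benjamini-Hochberg over 25107 contigs). Standard errors were obtained from the fold change and the F statistic. TMM factors ran from 0.963 to 1.02. The fit was tested on simulated data. Alternatives were DESeq2 1.42.0, limma-voom (limma 3.58.1), other scalings, no filter, a replicate block, lists of 100 and 200, and leaving out each library. The chi-square statistic per contig (mean count 10 or more) was 1.95 between the lemongrass and 6.99 between the citronella libraries, above the value near 1 that counting error alone would give.

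The members and lists were chosen with earlier results of these data known. Named contigs are the 10 with the highest mean CPM, those with the 2 largest folds and rank shifts in each direction, the widest gap within each species, and 2 on each side of the threshold. The narrowest spread and the first exceptions in each species were chosen after their values were seen, as were the classes by place and contig number. Gene lists set for leaves could not be applied without gene names.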

Additional observations from a re-analysis of the deposited data

How the results depend on the processing

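With lists of 100 in place of 150, the rule found 63 shared contigs, with 9.34% and 10.2% of the lemongrass and citronella counts. Of the 63, 23 were called in the direction of citronella and 10 in that of lemongrass. Over all contigs tested, 27.2% and 27.6% were called in these directions. With lists of 200 the shares of the counts were 14.9% and 16.0%. Such counts and shares follow from the length of the list. The median log2 fold change of the 107 contigs was 0.19 with upper-quartile scaling in place of 0.11, while the median of all contigs tested moved alike, from -0.005 to 0.075. With 1 library left out, contigs called higher in citronella ranged from 26 to 66, those called higher in lemongrass from 11 to 33, and the median log2 fold change from 0.038 to 0.19. In these fits 1 species has a single library, which is assumed to vary like the other species. For g.contigcf117 the log2 fold change was -0.53 without the second citronella library. Of 55 alternative values for the list, 42 stayed within 1.5 times (counts) or 1 SD (other values), and no median log2 fold change changed sign. Part of this tally was fixed in advance. Counts and shares cannot change sign, and leaving out 1 of 2 libraries always moves a mean share by less than 1 SD. Leaving out a library also cannot lower the number of shared contigs. The tally is thus no measure of robustness.

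Libraries share replicate numbers across species, but nothing says that a number marks a shared plot or day. With the replicate number as a block, 41 and 22 contigs were called in place of 40 and 22. Over all contigs tested, 51.7% were called with this block, against 54.8% without it. Deviations of same-numbered libraries from their species means correlated at -0.12 across 24959 contigs. With the numbers crossed, a pairing chosen after seeing the data, 34 and 20 of the 107 contigs were called. Over all contigs tested, the share called with crossed numbers was 58.0%, so the counts of the 107 contigs moved the other way. At these counts depth limits little, since the lowest was 3383. The number of libraries limits the precision.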
